A study of Homo sapiens with 12 samples.

Results

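The islet hormones other than glucagon were followed in stem cell-derived alpha cells under ER stress, as the transcripts of INS (insulin), IAPP (islet amyloid polypeptide), SST (somatostatin), PPY (pancreatic polypeptide), PYY (peptide YY) and GHRL (ghrelin). These 6 genes were chosen by symbol from the 28278 genes of the count table. The choice used no measured value as a threshold, but it was made with earlier results of these data known. The cells were differentiated from HUES-8, which is an established human line of embryonic origin, and were treated for 48 h in stirred 30 mL vessels (40 rpm). The tunicamycin group received 5 uM of the drug, the DMSO group received the solvent, and each group gave 6 samples for bulk RNA sequencing. Samples numbered 1 to 3 in each group were sequenced as batch 1 and those numbered 4 to 6 as batch 2. All 12 samples came from 1 cell line. Their titles call each number a biological replicate, but the labels do not say whether a number marks a separate differentiation. Each p-value therefore reflects the spread among these samples, which may be partly technical.

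Each islet hormone is the hallmark of its own endocrine cell type: insulin and amylin of beta cells, somatostatin of delta cells, pancreatic polypeptide of PP cells and ghrelin of epsilon cells, while peptide YY is shared between gut endocrine cells and part of the islet. All are made as larger precursors that enter the endoplasmic reticulum, are cut by prohormone convertases and are stored in dense granules. Tunicamycin blocks the first step of N-linked glycosylation, so that unfolded proteins build up in the endoplasmic reticulum and the unfolded protein response is switched on. Endocrine cells made from stem cells often carry RNA of more than 1 hormone, and in bulk RNA a lower level from fewer cells of a type cannot be told apart from less RNA per cell.

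Libraries held 17523442 to 28872269 counts. GCG, the glucagon gene, was the most abundant gene in all 12 samples, with 4.77% to 6.44% of all counts in tunicamycin samples and 6.35% to 8.79% in DMSO samples. The 6 other hormones together took 0.148% to 0.316% of counts in tunicamycin samples and 0.108% to 0.568% in DMSO samples. The widest exact 95% interval of such a combined share ran from 0.565% to 0.571% (DMSO sample 6, the highest), and it covers counting error only. All 8 ER stress genes listed rose with tunicamycin, among them HERPUD1, a part of the machinery that clears misfolded proteins (4.85-fold), and the chaperone MANF (5.89-fold). Of 17137 genes tested, 1344 (7.84%) passed an adjusted p of 0.05, 781 higher (4.56%) and 563 lower (3.29%). Without tunicamycin sample 4 the count was 791. With the sample number as a block, it was 2967 (17.3%), 1528 higher and 1439 lower (8.4%).

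Per length of annotated exon, the order of the hormone levels was GCG, SST, INS, IAPP, GHRL, PYY, PPY in both groups. SST stood at 3410 ± 815 CPM per kb in tunicamycin samples and 3514 ± 2628 in DMSO samples (SD, n = 6 each), where CPM is the count per scaled library size. INS followed at 175 ± 101 CPM per kb with tunicamycin and 219 ± 138 with DMSO, and IAPP at 38.5 ± 6.9 with tunicamycin and 68.8 ± 28.1 with DMSO. GHRL, PYY and PPY were far lower, at 5.58, 2.92 and 1.63 CPM per kb with tunicamycin and 6.66, 3.67 and 3.36 with DMSO. SST made up a median of 12.7% of the summed level of the 7 hormones in tunicamycin samples (7.32% to 16.7%) and 7.37% in DMSO samples (3.85% to 23.9%), while INS made up a median of 0.697% with tunicamycin and 0.705% with DMSO. Within each of the 12 samples GCG exceeded SST, SST exceeded INS, INS exceeded IAPP, IAPP exceeded GHRL and GHRL exceeded PYY. PYY exceeded PPY in 6 of 6 tunicamycin samples but in 3 of 6 DMSO samples, so with these lengths their order held within tunicamycin samples only. The ranges of PYY and PPY across samples overlapped in both groups. The ranges across samples also overlapped between GHRL and PYY in both groups, and between INS and IAPP in DMSO samples. Lengths of the longest transcript in place of all exons placed PPY above PYY in DMSO samples, at 5.90 against 4.12 CPM per kb, and kept PYY above PPY in tunicamycin samples, at 3.28 against 2.86. These lengths also raised GCG, from 23804 to 44081 CPM per kb with tunicamycin and from 31267 to 57901 with DMSO. SST was unchanged and INS rose less, so the shares of SST and INS given above depend on the lengths used. Both are smaller with the longest transcript.

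**Figure D1:**
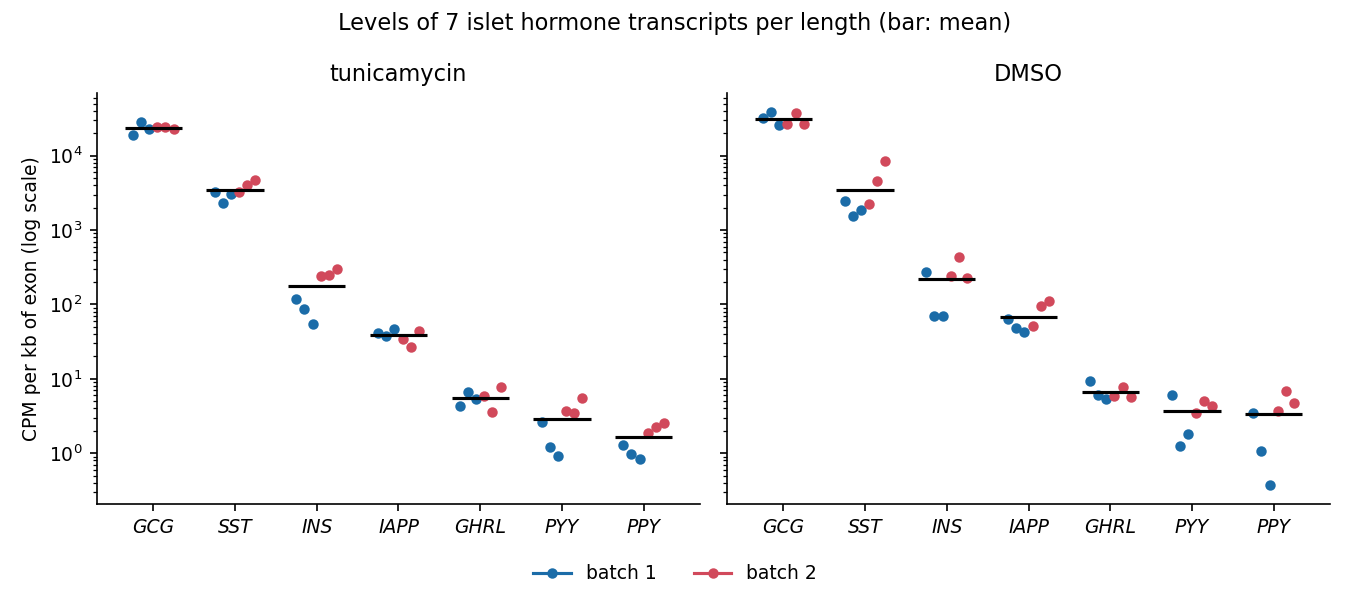
Levels of GCG and the 6 other hormone transcripts in CPM per kb of annotated exon, on a log axis, with 1 point per sample coloured by sequencing batch, the mean as a bar, tunicamycin on the left and DMSO on the right. SST is the second hormone after GCG in both panels, and the ranges of GHRL and PYY, and of PYY and PPY, overlap in both.

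Of the members, INS and GHRL overlap other annotated genes, and their counts are uncertain to that extent. INS lies on GRCh38 chromosome 11 from 2159779 to 2161341 on the minus strand, and 31.7% of its exon bases also belong to the read-through gene INS-IGF2 on the same strand, so a strand setting would not separate them. GHRL lies on chromosome 3 from 10285675 to 10292947 on the minus strand, with 13.95% of its exon bases opposite the antisense gene GHRLOS and 3.49% opposite LINC00852, and no label gives the strand setting of the counting. SST (chromosome 3, 187668906 to 187670399, minus strand) and IAPP (chromosome 12, 21354959 to 21379978, plus strand) share no exon bases with another gene in the annotation used. PPY and PYY, paralogs of the neuropeptide Y family, are neighbours on the minus strand of chromosome 17, at 43940804 to 43942468 and 43952738 to 44004469.

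The sequences before the transcript starts of IAPP, INS and SST are shown because these genes are the 3 most abundant members, and because factors that bind them in beta and delta cells, such as PDX1, carry homeodomains, whose core motif is TAAT. Each run is the 250 bases before a RefSeq start on GRCh38.p14, read 5′ to 3′ along the gene's strand, with capitals marking TAAT on either strand and, in SST, the cAMP response element TGACGTCA. The windows are chr12:21372652-21372901 on the plus strand for IAPP, at the downstream of its 2 annotated starts, chr11:2161210-2161459 on the minus strand for INS and chr3:187670395-187670644 on the minus strand for SST.
IAPP: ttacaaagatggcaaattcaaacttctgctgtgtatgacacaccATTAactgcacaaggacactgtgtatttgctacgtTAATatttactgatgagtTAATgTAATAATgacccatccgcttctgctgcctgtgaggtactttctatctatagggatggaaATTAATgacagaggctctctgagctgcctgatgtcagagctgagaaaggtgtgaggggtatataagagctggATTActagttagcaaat
INS: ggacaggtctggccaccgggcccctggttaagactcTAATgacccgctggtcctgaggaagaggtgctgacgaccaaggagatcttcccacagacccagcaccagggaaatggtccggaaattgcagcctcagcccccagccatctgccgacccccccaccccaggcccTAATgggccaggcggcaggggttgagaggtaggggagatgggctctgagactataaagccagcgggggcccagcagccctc
SST: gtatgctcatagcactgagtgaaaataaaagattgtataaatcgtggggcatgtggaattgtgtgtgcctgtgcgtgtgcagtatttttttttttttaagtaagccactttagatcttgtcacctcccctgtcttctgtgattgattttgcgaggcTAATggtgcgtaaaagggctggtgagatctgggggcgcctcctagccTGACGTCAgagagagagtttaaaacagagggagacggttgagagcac
The IAPP window held 8 matches of TAAT, at 206, 171, 153, 148, 145, 89, 87 and 17 bases before the start. Of these, 2 overlap each other in TAATAAT and 2 overlap on opposite strands in ATTAAT. Of 35116 RefSeq promoter windows of the same length, 47.4% held at least 1 match and 1.12% held 8 or more. INS had 2 matches, as did the window at the upstream IAPP start, and 27.6% of windows had 2 or more. SST had 1 match, and the windows of GHRL, PPY and PYY had none. TGACGTCA, a palindrome well known from the somatostatin gene, was found once in SST, 47 bases before the start, and in 1.65% of all windows. It overlapped no TAAT. A composite element for C/EBP and ATF factors (TGATGNAA, both strands) was found in none of the members' windows and in 3.14% of all windows. These are matches of letters and not measured binding sites, and which start the counted RNA came from was not tested.

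**Figure D2:**
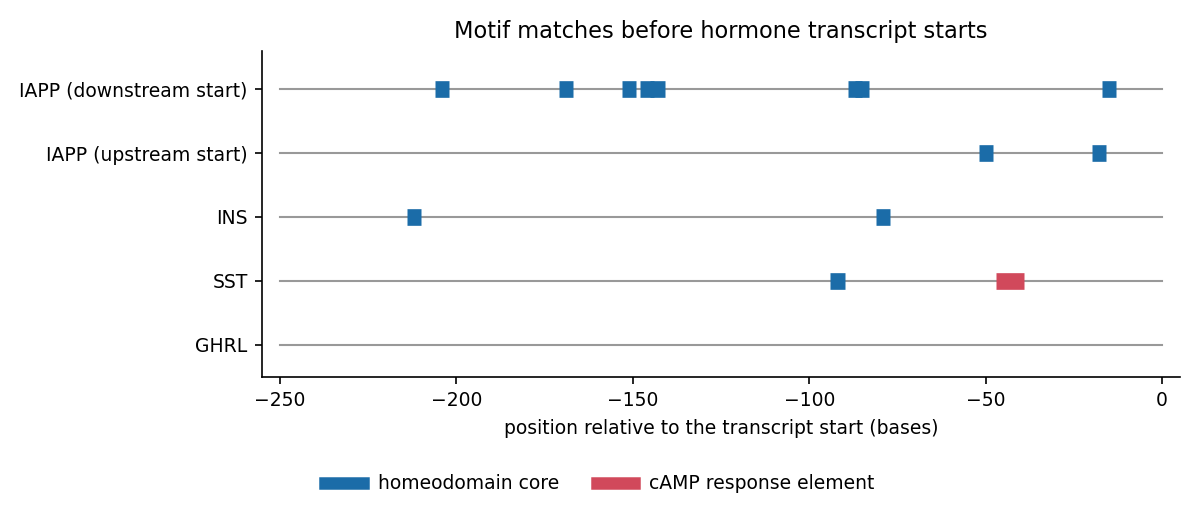
Matches of the homeodomain core (blue) and the cAMP response element (red) along 250 bases before the transcript starts of IAPP, INS, SST and GHRL, with distance from the start in bases on the horizontal axis. The downstream IAPP start has 8 core matches, the upstream one and INS 2 each and SST 1, while GHRL has none, and the red block lies in SST alone.

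Under tunicamycin, 1 of the 6 hormone genes passed the test, and the groups overlapped in all 6. IAPP, the amyloid-forming peptide that beta cells release with insulin, fell to 83.5 ± 15.1 CPM in tunicamycin samples, against 149 ± 60.8 CPM in DMSO samples (SD, n = 6 each), a 1.74-fold decrease. The other members gave log2 fold changes of 0.10 (SST), -0.26 (GHRL), -0.43 (INS), -0.47 (PYY) and -0.95 (PPY), and none of these passed. The share of lower calls over all genes was 3.29%, and over all genes the median log2 fold change was -0.01. Groups that do not overlap, with every tunicamycin sample below every DMSO sample, were seen in 222 genes (1.3%) and in 0 of the 6 members.

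**Figure D3:**
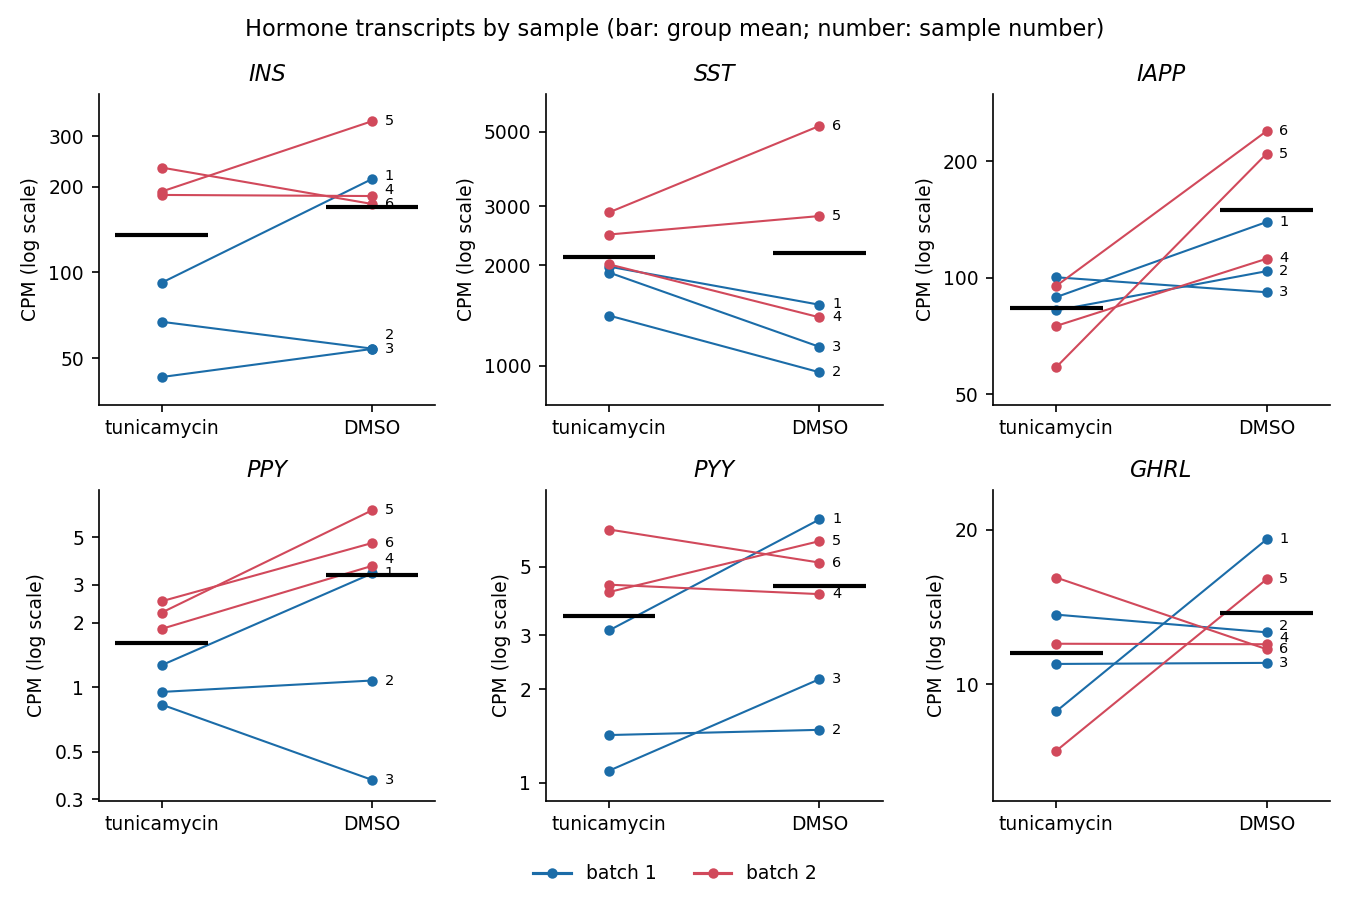
CPM of each hormone transcript on a log axis in the 6 tunicamycin samples (left) and the 6 DMSO samples (right), with lines joining samples of the same number, the number beside the DMSO point, batch as colour and group means as black bars. IAPP falls in 5 of 6 pairs, with the steepest lines in pairs 5 and 6, whereas the lines of INS, PYY and GHRL cross.

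IAPP had 58.8 CPM at the lowest, 85.7 at the median and 100.2 at the highest in tunicamycin samples, against 91.7, 126 and 239 CPM in DMSO samples. The 2 highest DMSO samples, numbers 5 and 6 of batch 2, had 209 and 239 CPM, and the ranges met only between 91.7 and 100.2 CPM. IAPP was lower with tunicamycin in 5 of 6 pairs and 1.09-fold higher in pair 3. The log2 fold change was -0.80 ± 0.22 (SE; adjusted p = 0.0455), and -0.76 ± 0.20 with the sample number as a block (adjusted p = 0.0245). In batch 1 alone it was -0.29 ± 0.19 (adjusted p = 0.797) and in batch 2 alone -1.29 ± 0.27 (adjusted p = 0.0336). Batch 2 means were 76.4 CPM with tunicamycin and 187 CPM with DMSO, and batch 1 means 90.6 CPM with tunicamycin and 112 CPM with DMSO. In edgeR's fit across all genes, the test of the difference between batches gave -0.99 ± 0.37 on the log2 scale, with an unadjusted p of 0.0192 and an adjusted p of 1.00. The call rested on a narrow margin: it was lost without tunicamycin sample 1 (adjusted p = 0.0525), 2 (0.0606), 4 (0.131), 5 (0.112) or 6 (0.0867), and without DMSO sample 1 (0.0953), 5 (0.101) or 6 (0.0750), while the log2 fold change stayed between -0.91 and -0.65 as single samples were left out.

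INS had 43.0 CPM at the lowest, 140 at the median and 233 at the highest in tunicamycin samples, against 53.9, 180 and 339 CPM in DMSO samples. The groups overlapped over nearly their whole ranges, and 3 of 6 pairs were lower with tunicamycin. The log2 fold change of -0.43 ± 0.33 did not pass (adjusted p = 0.494). It was 0.03 without DMSO sample 1, where INS stood at 213 CPM against 54.1 and 53.9 CPM in the other DMSO samples of batch 1. Between batches the difference was larger: INS was 2.56-fold higher in batch 2 than in batch 1 (log2 1.36 ± 0.33, adjusted p = 0.0436), while 1.93% of all genes were called higher in batch 2. That call was lost when any 1 sample other than DMSO 1 was left out (adjusted p up to 0.103), with log2 values of 1.23 to 1.46, whereas without DMSO 1 it held at 1.82 (adjusted p = 0.00500).

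PPY and PYY, hormones of the neuropeptide Y family that restrain pancreatic secretion and appetite, were close to the floor of detection. PPY had 18 to 52 counts in tunicamycin samples and 7 to 143 counts in DMSO samples. In CPM its lowest, median and highest values were 0.83, 1.57 and 2.52 with tunicamycin, against 0.37, 3.54 and 6.70 with DMSO. Its 7 counts in DMSO sample 3 correspond to 0.399 CPM before scaling, with an exact 95% binomial interval of 0.161 to 0.823. PPY was lower with tunicamycin in 5 of 6 pairs, with a log2 fold change of -0.95 ± 0.40 (adjusted p = 0.185). Without DMSO sample 3 the value was -1.16 and passed (adjusted p = 0.0359). Without DMSO sample 1 it was -0.54 (adjusted p = 0.520). PYY had 1.09, 3.62 and 6.59 CPM in tunicamycin samples (lowest, median, highest), against 1.48, 4.61 and 7.10 CPM in DMSO samples, with a log2 fold change of -0.47 ± 0.39 (adjusted p = 0.536). Its highest sample was DMSO 1, without which the value was 0.01. The 4 samples numbered 2 and 3 were the 4 lowest of the 12 for INS, for PPY and for PYY, an ordering singled out after the values were seen.

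SST, whose product inhibits release of both insulin and glucagon, had 1413, 1995 and 2874 CPM in tunicamycin samples (lowest, median, highest), against 957, 1460 and 5210.03 CPM in DMSO samples. All 6 tunicamycin samples lay inside the DMSO range, which spanned 5.44-fold against 2.03-fold with tunicamycin. In DMSO sample 6 SST was the third most abundant of all genes. SST was higher with tunicamycin in 4 of 6 pairs (numbers 1 to 4), and lower in pairs 5 and 6. The log2 fold change was 0.10 ± 0.28 (adjusted p = 0.885). It was 0.56 ± 0.26 in batch 1 (adjusted p = 0.636) and -0.36 ± 0.38 in batch 2 (adjusted p = 0.688). In edgeR's interaction test their difference of -0.90 ± 0.52 was not called (adjusted p = 1.00). Without DMSO sample 6 the value was 0.40 (adjusted p = 0.248), and without DMSO sample 2 or 4 it was -0.02.

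GHRL, the appetite-stimulating hormone of epsilon cells, varied least of the 3 low members, 2.17-fold from lowest to highest with tunicamycin and 1.74-fold with DMSO. It had 7.43, 11.5 and 16.1 CPM in tunicamycin samples (lowest, median, highest), against 11.0, 12.3 and 19.1 CPM in DMSO samples. Pairs 2, 3 and 4 differed by at most 1.08-fold, whereas in pairs 1 and 5 tunicamycin samples had 0.463 and 0.464 of the DMSO value and in pair 6 the tunicamycin sample was 1.38-fold higher. The log2 fold change was -0.26 ± 0.20 (adjusted p = 0.507), and -0.35 in batch 1 and -0.16 in batch 2. GHRL had a log2 value of -0.01 ± 0.20 for batch 2 over batch 1, while PPY (1.38 ± 0.40), PYY (0.95 ± 0.39) and SST (0.93 ± 0.28) were higher in batch 2 by sizes that did not pass (adjusted p = 0.0714, 0.164 and 0.0764). Without DMSO sample 1, PPY (1.82, adjusted p = 0.0228) and PYY (1.45, adjusted p = 0.0184) passed. GCG, for comparison, was lower with tunicamycin in 6 of 6 pairs, at -0.39 ± 0.16 (adjusted p = 0.176). It passed with DESeq2 (-0.40, adjusted p = 0.0380) but not with the block (-0.38, adjusted p = 0.0628).

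**Figure D4:**
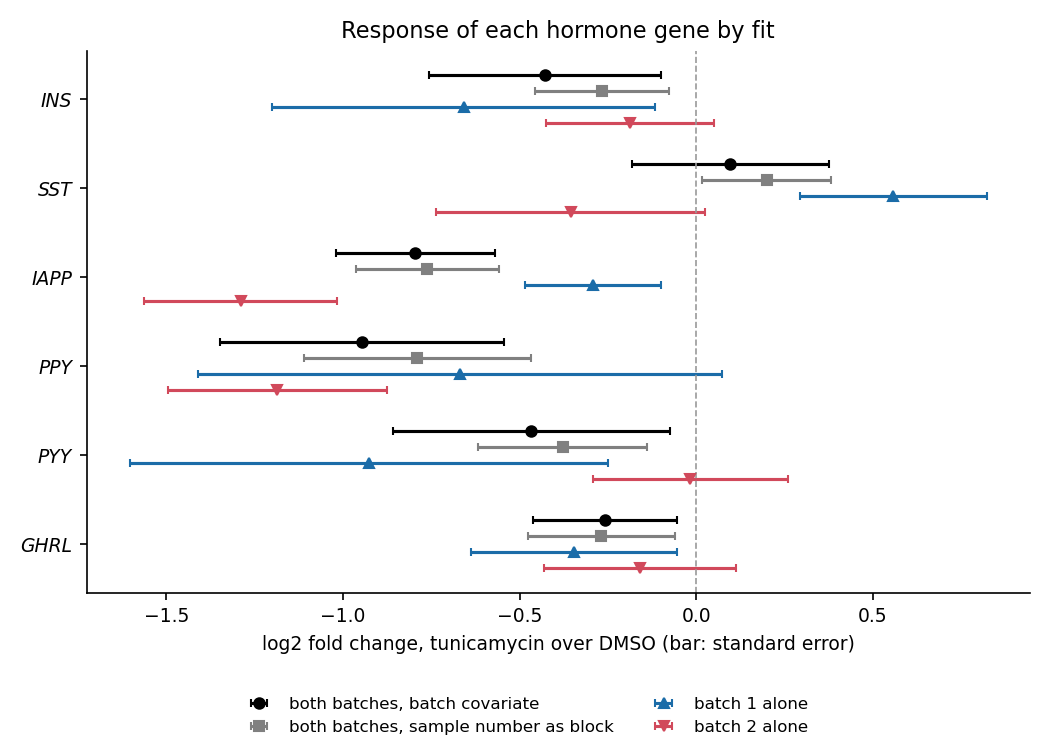
Log2 fold changes of tunicamycin over DMSO with standard errors for each hormone gene, from the fit with a batch covariate (black circles), the fit with sample number as a block (grey squares) and each batch alone (blue and red triangles). IAPP lies furthest left in batch 2, at -1.29, and SST lies on either side of 0 in the 2 batches.

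None of the 6 members passed the test of a response that differed between batches in edgeR, DESeq2 or limma-voom, and 1 (IAPP) had an unadjusted p under 0.05 in edgeR. Over all genes edgeR called 0 (0%) and 169 (0.986%) had an unadjusted p under 0.05.

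The balance between hormones was also read as ratios of counts inside each sample, which do not depend on scaling between libraries. The 6 hormones together amounted to 2.29% to 5.91% of the GCG counts in tunicamycin samples and 1.23% to 8.94% in DMSO samples, with SST supplying most of them. SST amounted to 4.42%, 2.05%, 3.44%, 3.43%, 4.20% and 5.26% of the GCG counts in tunicamycin samples 1 to 6, against 1.96%, 1.04%, 1.85%, 2.21%, 3.11% and 8.25% in DMSO samples 1 to 6. The ratio was higher with tunicamycin in 5 of 6 pairs, the exception being pair 6. Its denominator, GCG, was lower with tunicamycin in 6 of 6 pairs (log2 fold change -0.39), while SST itself was higher in 4 of 6 (0.10). A higher ratio is therefore not by itself a rise of SST. On the log2 scale it differed by 0.58 (exact permutation of the labels within batches, two-sided p = 0.165, adjusted p = 0.731 over 9 ratios). That test did not use the pairing by number. Permutation within pairs (64 arrangements) gave a p of 0.125 at the lowest over the 9 ratios. Without DMSO sample 6 the difference was 0.85 with an adjusted p of 0.045, from an exact permutation p of 0.01 over 200 arrangements. SST over INS likewise differed by 0.46 with all samples (adjusted p = 0.731) and by 0.78 without DMSO sample 6 (adjusted p = 0.045). Without both samples numbered 6, the 2 ratios differed by 0.77 each and did not pass (adjusted p = 0.15). The 120 arrangements left there allow no permutation p under 0.0167, which was the lowest found. After adjustment over 9 ratios a single ratio at that limit cannot pass, so this result does not weaken the difference.

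IAPP over INS ran from -1.71 to 1.22 in tunicamycin samples and from -0.73 to 0.94 in DMSO samples on the log2 scale. The 3 tunicamycin samples of batch 2 were the 3 lowest of all, with IAPP counts at 40.2%, 30.6% and 40.9% of INS counts, against 60.4%, 61.6% and 137% in the DMSO samples of that batch. Over both batches the difference was -0.50 (exact permutation p = 0.26, adjusted p = 0.731), and it was 0.12 in batch 1 alone. None of the 9 ratios passed with all samples, and none had an unadjusted p under 0.05, where 400 arrangements allow a p as low as 0.005. The remaining differences lay between -0.38 (IAPP over GCG) and 0.12 (INS over GCG).

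**Figure D5:**
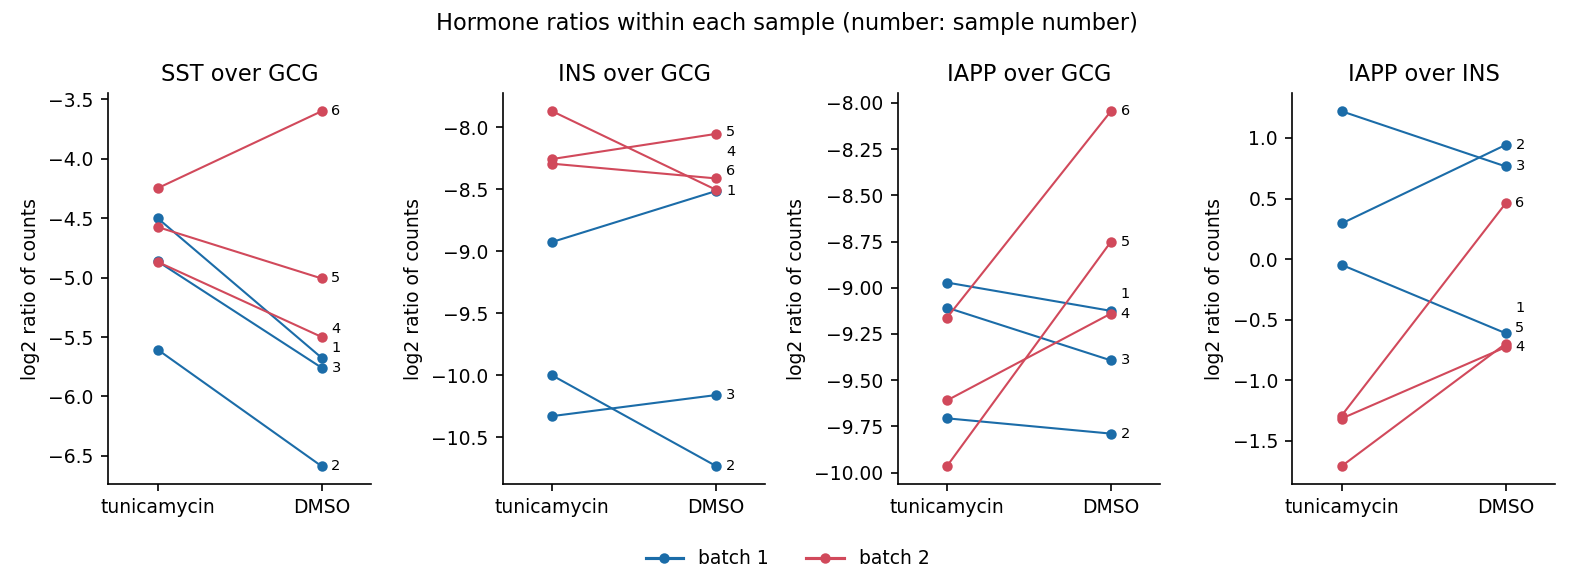
Log2 ratios of counts within each sample for SST, INS and IAPP over GCG and for IAPP over INS, tunicamycin left and DMSO right, with lines joining same-numbered samples and batch as colour. SST over GCG is higher with tunicamycin in every pair except number 6, and IAPP over INS is lower with tunicamycin in each pair of batch 2.

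Genes that mark the cell types of these hormones were read from the same fit, as lists drawn up with earlier results of these data known. The calls in this and the later lists stand beside 4.56% higher and 3.29% lower over all genes. With the block, 8.4% of all genes were called lower and 17.3% in either direction. In lists this short, a single call cannot be told apart from these shares. Among 15 beta cell markers tested, 4 fell and 0 rose, with a median log2 fold change of -0.43. With the block, 7 fell and 1 rose. SAMD11 fell to 7.96 ± 2.84 CPM with tunicamycin, against 23.8 ± 3.4 CPM with DMSO (3.03-fold lower, adjusted p = 0.000195). PDX1, the activator of the insulin and amylin genes, fell to 52.5 ± 13.4 CPM with tunicamycin, against 106 ± 23 CPM with DMSO (2.01-fold lower, adjusted p = 0.00303). NKX6-1, a factor that keeps beta cell identity, fell 1.61-fold (adjusted p = 0.00937). HADH, a mitochondrial enzyme of fatty acid oxidation, outside the rule for named genes and taken after its values were seen, had a log2 fold change of -0.43 (adjusted p = 0.0251), a call lost without tunicamycin sample 4 or 5 or DMSO sample 1 or 5 (adjusted p up to 0.0758). The beta cell list summed to 875 to 2649 CPM in tunicamycin samples and 1701 to 3640.3 CPM in DMSO samples.

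Of 8 delta cell markers, 0 were called by edgeR, with 1 higher and 1 lower at an unadjusted p under 0.05. DESeq2 called 2 and limma-voom 0, and with the block 1 rose and 1 fell. The most abundant, ETV1, a transcription factor, averaged 224 ± 43 CPM with tunicamycin and 251 ± 60 CPM with DMSO. Of 7 PP cell markers, 1 fell (3.29% over all genes), with 2 lower under the block (8.4% over all genes). This was CARTPT, the precursor of the CART peptides, at 3.57 ± 2.14 CPM with tunicamycin and 9.71 ± 4.60 CPM with DMSO (2.69-fold lower, adjusted p = 0.0408). The CARTPT call was lost without tunicamycin sample 1, 2, 4 or 5 or DMSO sample 1, 3, 5 or 6 (adjusted p up to 0.105). Of 9 epsilon cell markers, 1 fell, the rare transcript PHGR1 at 0.0915 CPM with tunicamycin and 0.481 CPM with DMSO (adjusted p = 0.0219, named after its values were seen). That call was lost without tunicamycin sample 1 or 3 or DMSO sample 4 (adjusted p up to 0.0637). With the block, 5 epsilon cell markers fell and 1 rose. SPTSSB, a subunit of the enzyme that starts sphingolipid synthesis and the most abundant of the list above the expression minimum, averaged 222 ± 43 CPM with tunicamycin and 270 ± 52 CPM with DMSO and was not called (adjusted p = 0.223), while with the block it was called lower (log2 -0.28, adjusted p = 0.0481). Medians of the delta, PP and epsilon lists were -0.17, -0.36 and -0.27. The delta cell list summed to 233 to 343 CPM with tunicamycin and 261 to 404 CPM with DMSO, the PP cell list to 202 to 288 CPM with tunicamycin and 224 to 414 CPM with DMSO, and the epsilon cell list to 522 to 896 CPM with tunicamycin and 606 to 855 CPM with DMSO.

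Of 7 enterochromaffin cell markers, genes of the serotonin-making cells that can appear in islet differentiations, 2 fell and 0 rose, with a median of -0.20. With the block, 3 fell and 1 rose. DDC, which makes serotonin and dopamine from their precursors, fell 1.61-fold (adjusted p = 0.0107). FEV, a serotonergic transcription factor, fell 1.56-fold (adjusted p = 0.0262), a call lost without tunicamycin sample 4 or 5 or DMSO sample 1 or 5 (adjusted p up to 0.0728). Among 13 alpha cell markers 1 rose and 1 fell, with a median of -0.13. CRYBA2, a crystallin of islet endocrine cells, fell to 179 ± 43 CPM with tunicamycin, against 630 ± 154 CPM with DMSO (3.49-fold lower, adjusted p = 7.56e-05). SMOC1, a secreted calcium-binding protein, rose 1.35-fold (adjusted p = 0.0179), a call lost without tunicamycin sample 4 (adjusted p = 0.0588).

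The transcription factors known to act on hormone genes moved in both directions: of 18 tested, 2 rose and 5 fell, and 3 rose and 6 fell with the block. Over all genes 4.56% rose and 3.29% fell, and 17.3% were called in either direction with the block. RFX6, needed for islet endocrine cells to form, rose to 245 ± 51 CPM with tunicamycin, against 134 ± 41 CPM with DMSO (1.87-fold, adjusted p = 0.00261). PAX6, which activates the glucagon, insulin and somatostatin genes, rose to 404 ± 59 CPM with tunicamycin, against 219.9 ± 50.7 CPM with DMSO (1.84-fold, adjusted p = 0.00479). PDX1 and NKX6-1 fell, as given above. Others that fell, named after their values were seen, included PAX4 (log2 -1.31, adjusted p = 0.00839), which favours beta over alpha cell fate, and FOXA2 (-0.38, adjusted p = 0.0312), a factor of early endoderm and the pancreas. The FOXA2 call was lost without tunicamycin sample 1, 4 or 5 or DMSO sample 1, 4 or 5 (adjusted p up to 0.0839). NEUROD1 and ISL1, general factors of islet endocrine cells, were not called.

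None of the 14 genes of prohormone processing and granule storage was called by edgeR, with 1 higher at an unadjusted p under 0.05, 1 called by DESeq2, 0 by limma-voom and 1 with the block, and a median of 0.07. CPE, the carboxypeptidase that trims the cut prohormones, averaged 2426 ± 705 CPM with tunicamycin and 1588 ± 399 CPM with DMSO. Its log2 fold change of 0.61 ± 0.20 had an adjusted p of 0.0840, of 0.00616 with the block and of 0.0442 without DMSO sample 2. The convertases PCSK1 and PCSK2 averaged 108 and 154 CPM with tunicamycin and 137 and 173 CPM with DMSO.

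A list of receptor genes gave 2 higher and 2 lower calls among 13 tested, with a median of -0.14. Beside receptors for these hormones, it held IGF1R, the RAMP genes and the glucagon receptor gene GCGR. Over all genes the shares were 4.56% higher and 3.29% lower. The insulin receptor gene INSR rose 1.60-fold (adjusted p = 0.000569) and IGF1R, its close relative, had a log2 fold change of 0.53 (adjusted p = 0.0210, named after its values were seen), a call lost without tunicamycin sample 4 (adjusted p = 0.0554). RAMP2 fell 1.82-fold (adjusted p = 0.00555) and RAMP1 fell 2.11-fold (adjusted p = 0.00813). The RAMP proteins pair with the calcitonin receptor to form amylin receptors. CALCR, the calcitonin receptor gene itself, averaged 1.24 CPM with tunicamycin and 1.48 CPM with DMSO and was not called. The somatostatin receptor gene SSTR2 averaged 395 CPM with tunicamycin and 403 CPM with DMSO. Of 16 other gut and neural peptide genes 1, again CARTPT, fell, with a median of -0.38. With single samples or same-numbered pairs left out, the calls ran from 2 to 6 for the beta cell list, 0 to 1 for delta, 0 to 2 for PP, 0 to 2 for epsilon, 0 to 3 for enterochromaffin, 1 to 2 for alpha, 3 to 9 for the transcription factors, 0 to 1 for processing and 3 to 5 for receptors. Without both samples numbered 4, the calls of NKX6-1 (adjusted p = 0.0726), PAX4 (0.0649), RAMP1 (0.0509) and DDC were also lost, the last also without those numbered 5 (adjusted p up to 0.0604).

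Markers of cells outside the islet also differed between samples. For their counts, the share of lower calls over all genes was 3.29%, and 8.4% with the block. Of 10 mesenchymal genes, edgeR called 0 (5 lower at an unadjusted p under 0.05), DESeq2 1 and limma-voom 0, while 9 fell with the block, and their median was -1.27. With samples or pairs left out, 0 to 4 of them were called, the 4 without tunicamycin sample 5. Their sum ran from 99.5 to 646 CPM in tunicamycin samples and 185 to 1595 CPM in DMSO samples. DMSO samples 1 and 3, with 1595 and 1008 CPM, were the highest, and DMSO 1 is the sample on which the values of INS and PYY turned. Of 12 heart muscle genes edgeR called 0 (1 higher and 2 lower at an unadjusted p under 0.05), DESeq2 and limma-voom 1 each, and with the block 1 rose and 2 fell, with a median of -2.28. Their sum ran from 12.5 to 1179 CPM in tunicamycin samples and 9.59 to 2264 CPM in DMSO samples, highest in the samples numbered 5 of both groups. Of 11 ductal and acinar genes 5 fell (KRT19, CFTR, CPA1, CELA3A and PTF1A), 8 with the block and 3 to 6 with samples or pairs left out (3 without tunicamycin sample 4 or 5 or DMSO sample 3, 4 or 5), with sums of 170.1 to 539.8 CPM in tunicamycin samples and 517 to 835 CPM in DMSO samples. Of 6 pluripotency genes 2 passed the filter, and edgeR, DESeq2 and limma-voom called 0 of them, with 0 at an unadjusted p under 0.05. No gene of these lists was at 0 in all samples. With the summed mesenchymal level as a covariate the log2 fold changes were -0.88 for IAPP (adjusted p = 0.0844), 0.06 for INS and 0.14 for PYY, and with the heart muscle sum IAPP was at -0.84 (adjusted p = 0.0506). The part of these cells in the hormone levels was otherwise not tested.

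As a description, each member was also set beside the genes whose log2 CPM followed it most closely over the 12 samples, among 14284 genes. The points share library, batch and the mix of cells. INS was followed closely by FXYD6 (Pearson r = 0.987, Spearman rho = 0.860) and MDK (0.970, 0.881), and after the 4 means of batch and treatment were taken out, r was 0.976 and 0.972. SST was followed by NTS, the neurotensin gene (r = 0.911, rho = 0.902, 0.898 within groups), FAM155A (r = 0.909) and ZDHHC16 (r = 0.894). IAPP was followed by GPR85 (r = 0.907, rho = 0.881, 0.883 within groups), DPP3 (r = 0.891, 0.682 within groups) and CCDC74B (r = 0.886, 0.879 within groups). Of these 3, DPP3 and CCDC74B were called lower with tunicamycin (log2 -0.71 and -0.55, adjusted p = 0.0063 and 0.0233). Both were picked for following IAPP, itself called lower, over the same 12 samples, so these calls are no separate evidence. PPY was followed by FLJ20021 (r = 0.973), POLR2E (0.959) and RSF1 (0.959), and PYY by RPL27, a ribosomal protein gene (0.943), and TGIF2 (0.937). GHRL was followed by LXN (r = 0.882), SNRPB2 (0.868) and CZIB (0.865).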

How the data were processed

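RNA was sequenced in bulk from 12 samples, 6 with tunicamycin and 6 with DMSO. The deposited table holds raw counts per gene symbol as whole numbers, which the authors made with cutadapt 4.4, HISAT2 2.1.0 and featureCounts 2.0.6 on GRCh38, per the submitters' processing notes; no source used here gives the annotation or strand setting. The members and lists were chosen with earlier results of these data known. Genes were filtered with filterByExpr (17137 of 28278 kept, all 6 members among them), scaled with TMM and tested two-sided with edgeR 4.0.16 in R 4.3.3 (quasi-likelihood, batch as covariate, Benjamini-Hochberg over all genes tested, threshold 0.05). CPM values were computed from the scaled libraries, and levels per kb and positions used GENCODE 29. Promoter sequences are from RefSeq. Ratios used a pseudocount of 0.5 counts and exact permutation within batches. Named genes were the members, GCG, the 3 genes most like each member, and per endocrine or pathway list up to 3 called genes whose mean log2 CPM reached 1 (the most abundant where none was called). Some genes that this rule or a list count takes in are not reported here by name. Alternatives were RLE factors, library totals alone, other filters, DESeq2 1.42.0, limma-voom (limma 3.58.1), no batch covariate, each batch alone and single samples left out. Leaving out same-numbered pairs was not planned. Neither were the 2 marker sums as covariates, which were added after the data were seen.

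Same-numbered samples deviated together from their group and batch means (correlation across genes of 0.50, 0.58, 0.52, 0.12, 0.18 and 0.18 for numbers 1 to 6), all over the limit of 0.1 set for pairing, so the numbers were taken to pair the samples. The pairing was weaker in batch 2, where numbers 4 and 5 correlated more with another number (0.20 and 0.27). Replicates differed beyond sampling noise (chi-square per gene of 10.9 to 99.6), and all were kept as separate samples. The edgeR scripts were checked on simulated counts with known changes before use. The main fit recovered 25.4% of 1.5-fold, 74.6% of 2-fold and 98.5% of 4-fold changes, and 6.38% of its calls were false. The block recovered 22.4%, 73.1% and 97.0%, and 9.86% of its calls were false. The simulated means held no batch or pair differences, unlike the real samples. These shares therefore do not rank the 2 fits on the real data or give their error there. Small changes were often missed in the simulated counts, and a gene not called is not shown to be unchanged.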

Additional observations from a re-analysis of the deposited data

How the results depend on the processing

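The count of 1344 called genes became 2967 with the replicate block, 2100 with DESeq2, 57 in batch 1 alone and 654 in batch 2 alone, and 564 to 1444 when samples or pairs were left out. All 1344 were among the 2967, in the same direction. The block changed no call of a member. IAPP was not called by limma-voom (-0.76, adjusted p = 0.0502), in batch 1 alone (-0.29), or with the heart muscle (-0.84) or mesenchymal sum (-0.88) as a covariate, and its value ran from -0.98 to -0.60 with samples or pairs left out. SST turned to -0.043 without the batch covariate and -0.36 in batch 2 alone, with -0.042 to 0.40 over left-out samples or pairs. INS turned to 0.060 and PYY to 0.14 with the mesenchymal sum, and over left-out samples or pairs they ran from -0.59 to 0.032 and -0.66 to 0.012, while PPY ran from -1.16 to -0.54. For batch 2 over batch 1, PPY passed with DESeq2 (1.38) and limma-voom (1.61), and left-out samples gave 1.23 to 1.82 for INS, 1.14 to 1.82 for PPY, 0.78 to 1.45 for PYY and -0.15 to 0.12 for GHRL. Interaction values ran from -0.51 to 0.84 for INS, -0.068 to 1.501 for PYY and -0.091 to 0.44 for GHRL. Batch 1 alone turned the ratios IAPP over GCG (0.17), PPY over GCG (0.30), PYY over GCG (-0.28), IAPP over INS (0.12) and PPY over PYY (0.58), batch 2 alone turned SST over INS (-0.044), and a pseudocount of 0.1 turned PYY over GCG (-0.0023). With samples or pairs left out the ratios ran from -0.035 to 0.27 (GHRL over GCG), -0.12 to 0.44 (INS over GCG), -0.57 to 0.12 (PPY over GCG), -0.30 to 0.32 (PYY over GCG), 0.38 to 0.85 (SST over GCG) and 0.22 to 0.78 (SST over INS). Longest-transcript lengths moved GHRL to 8.08 and PPY to 2.86 CPM per kb with tunicamycin, and to 9.64 and 5.90 with DMSO. They moved GCG to 44081 with tunicamycin and 57901 with DMSO, which lowers the shares of SST and INS in the summed hormone level. The cause of these moves was not tested. With 18 to 52 counts of PPY per tunicamycin sample and 7 to 143 per DMSO sample, counting error limits that gene most.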
